A study of Saccharomyces cerevisiae with 12 samples.

Results

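The 46 spots described here fell further in synthesis rate from 0 min to the late times than the typical spot did. In the authors' deposited table their mRNA abundance changed about as much as that of the typical spot. On the single arrays it changed lower, with a median late log2 change of -0.21 against -0.02 over all spots tested. There 40 of the 46 were below 0, against 52.2% of all spots tested. The 46 spots were chosen from the authors' table, which holds 1 mRNA abundance and 1 synthesis rate per spot at each of 6 times. Of 6144 spots on the array, 4468 had all 12 values and 3574 of these had a mean mRNA abundance above the 20th percentile. For each of these 3574 spots the log2 ratio of a late time to 0 min was taken, the median over the spots was subtracted, and the results at 120, 180 and 240 min were averaged. This mean is called S for the synthesis rate and D for mRNA abundance. Below, a value low, above or below the typical spot means such a centred change from 0 min, unless a level or signal is named. The 46 spots were those among the 300 lowest values of S with D between -0.2 and 0.2. Of the other spots among those 300, 234 had a D below that band and 20 had a D above it. S and D therefore chose the spots, and they are given below as a description with no test.

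The amount of an mRNA in a cell is set by how fast it is made and how fast it is removed. When synthesis drops, abundance follows with a delay that depends on how long the mRNA lives, and it can stay level if removal slows as well. Such offsetting of synthesis by decay is known as mRNA buffering and has been described in budding yeast. In this yeast, damage to the cell wall activates the cell wall integrity pathway, a chain of kinases that starts at sensors in the plasma membrane and ends at transcription factors acting on cell wall genes.

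The yeast was the wild-type laboratory strain BY4741 of Saccharomyces cerevisiae. Cultures grew at 24 °C in YEPD, a rich medium with glucose, and received Congo Red, a dye that binds chitin and disturbs cell wall assembly, at a sublethal 30 µg/ml. Cells were taken at 0 min, before the effect of the dye, and at 30, 60, 120, 180 and 240 min, and each time was measured on 3 replicate arrays per assay. In the first assay mRNA was copied into radioactive cDNA from an oligo-dT primer, which gives mRNA abundance. In the second, genomic run-on, permeabilised cells extended transcripts already begun in the presence of radioactive UTP, which gives nascent transcription. No culture without the dye was sampled after 0 min, so the dye and time in culture cannot be told apart, and whether replicates were separate cultures is not stated. If they were not, the p-values measure technical spread only.

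The spots carry only their place on the array, a row and a column of blocks and 1 of 16 printing positions within a block. The identifiers matched 0 of the 6477 genes of the RefSeq table (assembly R64), so no gene is named and no sequence is shown. The 36 arrays held total intensities from 387129 to 1660994 for mRNA and from 512224 to 1880504 for nascent transcription, and each array listed 14.9% to 18.2% of its spots at 0. No 2 arrays held identical values. RNA came from whole cultures, so fewer cells holding an mRNA and less of it per cell cannot be told apart. All 46 spots entered the tests of both assays, and 45 of them had an intensity above 0 on all 36 arrays. The number of arrays limits the precision of every value below.

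In the authors' deposited table the median synthesis rate of the 46 spots, as a centred change from 0 min, was already low at 60 min and lowest at 120 min. At 30, 60, 120, 180 and 240 min, in that order, the median of the centred log2 ratio to 0 min was -0.18, -0.41, -0.64, -0.57 and -0.57. At 30 min 33 of the 46 lay below 0, and at 60 min 44 did. The times 30 and 60 min were not part of S, but they are set against the same 0 min column, so these counts share the 0 min value with the rule. S ran from -1.03 to -0.49 with a median of -0.58, and 12 spots had an S below -0.7. Just outside the 300, the lowest S of a spot with D in the band was -0.48.

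Before centring, the synthesis rate of the median spot of the set in the authors' deposited table stood at 0.875, 0.707, 0.511, 0.399 and 0.382 times its 0 min value over the same 5 times. Over all 3574 spots the median was 0.991, 0.940, 0.799, 0.592 and 0.567. These ratios include shifts common to the whole table and the authors' volume factors of 1.17, 1.44 and 1.65, which divide every spot of a time alike and so cancel in S. The uncentred mRNA abundance of the median spot of the set stood at 1.04, 0.974, 0.721, 0.608 and 0.626 times its 0 min value. Over all 3574 spots the mRNA median was 1.03, 1.02, 0.744, 0.658 and 0.632. By 240 min abundance in that table was below its 0 min value in 44 of the 46 spots and in 3248 of all 3574. Abundance in the set was thus close to level relative to other spots, and not in the units of the table.

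**Figure D1:**
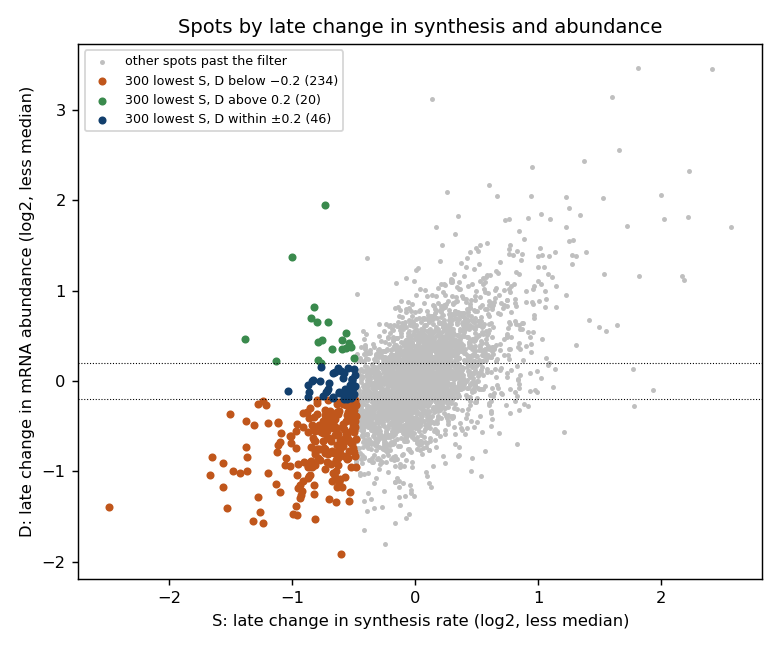
Late change in synthesis rate (S, x axis) against late change in mRNA abundance (D, y axis) for 3574 spots, both in log2 less the median of all spots, with dotted lines at the D band of -0.2 to 0.2. The 46 chosen spots form the narrow strip between the lines at the left, above the 234 spots whose D was lower and below the 20 whose D was higher.

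Relative to the typical spot, the mRNA abundance of the set had medians of 0.01, -0.06, -0.05, -0.11 and -0.01 from 30 to 240 min. D ran from -0.20 to 0.15, and 32 of the 46 values were below 0. Among the 300 spots with the lowest S, the nearest outside the band had a D of -0.21 below it and of 0.20 above it. Single times varied more than the mean D shows. Only 13 of the 46 spots lay within 0.2 of the typical spot at all 3 late times, and 33 lay above it at one late time and below it at another. The range of a spot over the 3 late times had a median of 0.32 in mRNA abundance and of 0.40 in synthesis rate, and in 10 spots the range in mRNA abundance was above 0.5.

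Among the 300 spots with the lowest S, most had also fallen in mRNA abundance relative to the typical spot. The 234 spots with D below the band had median centred synthesis ratios of -0.20, -0.47, -0.85, -0.70 and -0.60 from 30 to 240 min. Their mRNA medians were -0.30, -0.48, -0.61, -0.73 and -0.60 at the same times. At 30 and 60 min the synthesis medians of the 46 and of the 234 spots lay close together, while their mRNA medians lay apart. D separated the lists, so this difference in mRNA is a description, and it shares the 0 min column with the rule. Across all 3574 spots 38.3% had a D within the band, and among the 300 with the lowest S 15.3% did. Over the 46 spots S and D correlated at 0.05 (Pearson), and over the 3574 spots at 0.60. Those correlations are across spots that share arrays, and the first is limited by the narrow band.

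**Figure D2:**
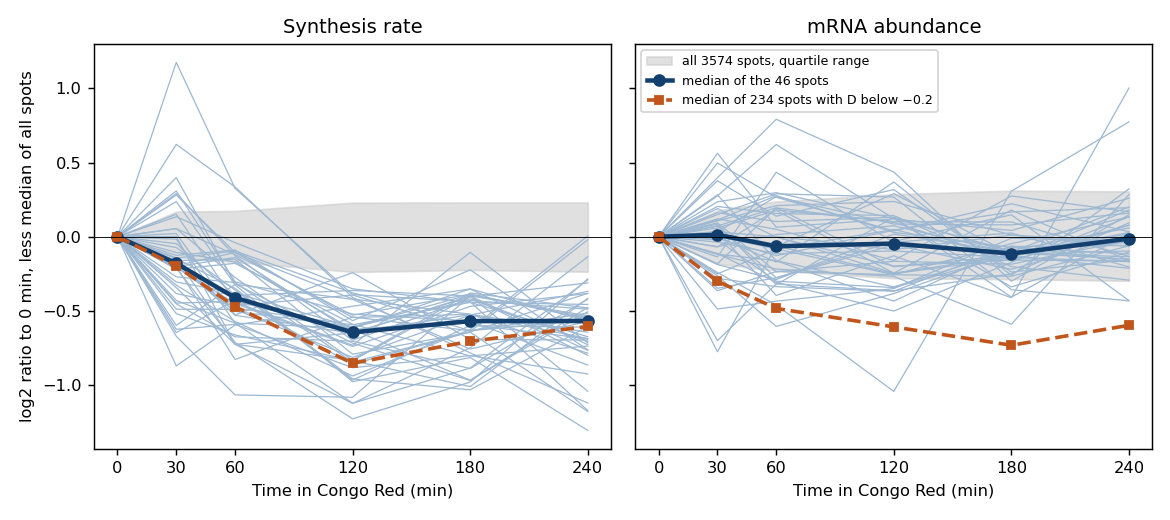
Centred log2 ratio to 0 min of synthesis rate (left) and mRNA abundance (right) against time in Congo Red, in the authors' table. Thin lines are the 46 spots, the thick line is their median, the dashed line is the median of the 234 spots with D below -0.2, and the grey band is the quartile range of all 3574 spots. The median of the 46 reached -0.64 in synthesis at 120 min and stayed between -0.11 and 0.01 in abundance.

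The timing of the low synthesis differed among the 46 spots. The lowest of the 3 late values came at 120 min in 19 spots, at 180 min in 9 and at 240 min in 18. All but 1 were below the typical spot at all 3 late times. At 30 min 4 spots stood more than 0.3 above the typical spot in synthesis, the highest at 1.17, and these ended between -1.17 and -0.48 at 240 min. At the other end 14 spots were already below -0.3 at 30 min, and 32 were at 60 min. Of all 3574 spots 8.34% and 13.8% were below -0.3 at these times.

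The single arrays give the spread between replicates. Those at 0, 120, 180 and 240 min lie behind the columns that chose the spots. In both assays their values therefore describe the set and are no separate support for it. For these array medians, all spots means the spots tested in the assay, 5113 for nascent transcription and 4882 for mRNA. The filter on mean mRNA abundance that left 3574 spots was not applied to them. After quantile normalisation within an assay, the median nascent log2 intensity of the 46 spots exceeded the median of all spots by 0.40, 0.43 and 0.17 on the 3 arrays at 0 min. At 30 min it differed from it by 0.44, 0.24 and -0.06. By 60 min the differences had become 0.25, -0.22 and -0.10. At 120 min the differences were -0.19, -0.34 and -0.26. The arrays at 0 min and those at 120 min did not overlap, while those at 30 and 60 min did. At 180 min the values were -0.35, -0.20 and 0.00, followed by -0.25, -0.16 and -0.03 at 240 min. The third array lay highest at both of these times.

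On the mRNA arrays the median of the 46 spots exceeded that of all 4882 spots tested by 0.02, 0.43 and 0.13 at 0 min. It did so by 0.01, 0.14 and 0.08 at 30 min, and it differed by -0.07, 0.19 and 0.14 at 60 min. At 120 min the differences in mRNA were 0.00, 0.15 and -0.05. Those at 180 min were -0.15, 0.06 and -0.04, followed by -0.27, 0.16 and 0.20 at 240 min. The arrays of every later time overlapped those at 0 min, and the second array at 0 min stood above all others. Set against each spot's own mean at 0 min, between 37 and 46 of the 46 spots were lower in nascent signal on each of the 9 late arrays. In mRNA between 22 and 36 were. The share over all spots was not computed for these counts, so nothing is read from them.

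**Figure D3:**
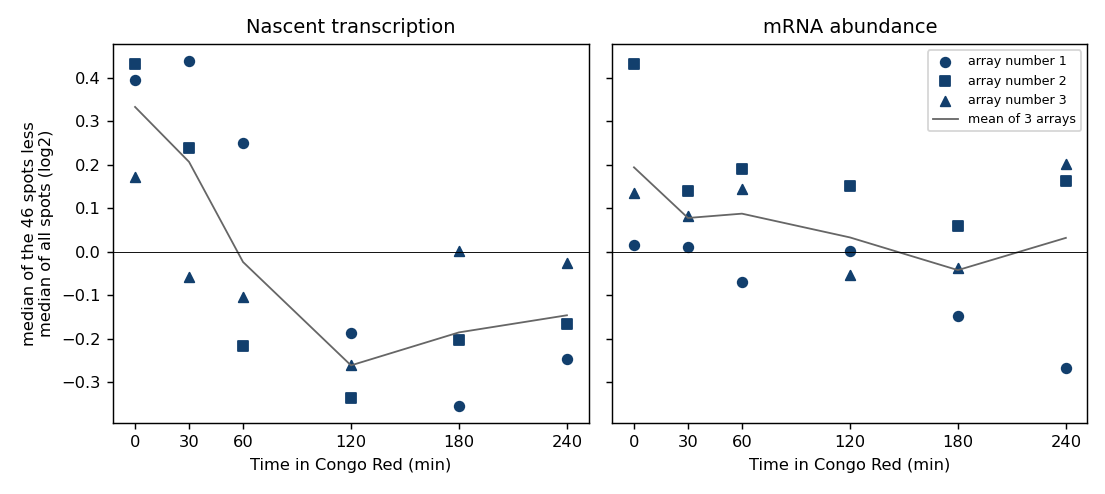
Median of the 46 spots less the median of all spots tested in the assay on each array (y axis, log2 of quantile-normalised intensity) against time in Congo Red, for nascent transcription (left) and mRNA abundance (right). Each symbol is 1 array, the symbol shape gives the array number, and the line joins the means of 3 arrays. The nascent arrays at 0 min lie between 0.17 and 0.43 and those at 120 min between -0.34 and -0.19, while the mRNA arrays of most times overlap.

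The change from 30 to 60 min is the one between times whose arrays the rule used only through the filter on mean abundance, so it could be tested. In nascent transcription 34 of the 46 spots were lower at 60 than at 30 min and 12 were higher, with a median log2 change of -0.20. Over all 5113 spots tested the median was 0.01 and 48.8% were lower. None of the 46 spots passed (0 called, limma, Benjamini-Hochberg adjusted p under 0.05 over all spots), and 0 of the 5113 spots did, a background of 0%. At an unadjusted p under 0.05, 2 of the 46 spots were lower and 0 were higher, where the background was 1.41% lower and 1.04% higher. The replicates at 60 min lay wholly below those at 30 min in 2 of the 46 spots, against a background of 3.83%, and wholly above them in 0, against 3.94%. A single spot's change had a median SE of 0.31 in the set, larger than the median change itself. With each printing position centred on each array the median was -0.16. A change from 30 to 60 min was thus not shown for any of these spots.

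In mRNA the median change of the 46 spots from 30 to 60 min was -0.06, with 29 lower and 17 higher, and the median of all 4882 spots was 0.01. Again 0 of the 46 passed (limma adjusted p) and 0 were under an unadjusted p of 0.05, with backgrounds of 0% and, unadjusted, of 0.205% lower and 0.574% higher. Groups that did not overlap were found in 2 spots downward and 1 upward, against backgrounds of 1.54% and 1.9%. With each position centred the median was 0.00. The median SE was 0.34, and it was 0.24 with the replicate number as a block. With that block 0 of the 46 spots passed in either assay (limma adjusted p).

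**Figure D4:**
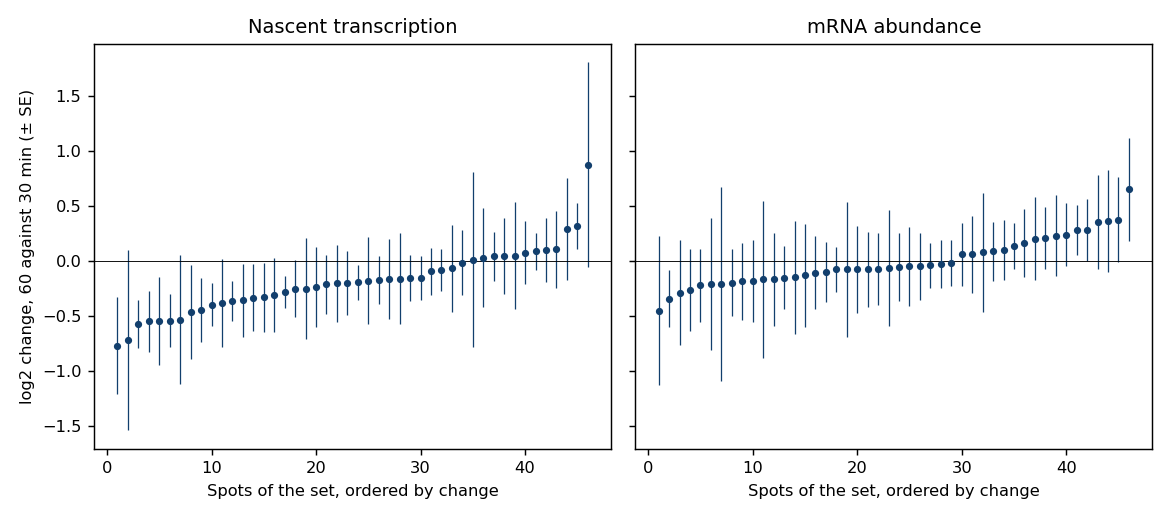
Log2 change from 30 to 60 min (y axis, with SE from limma) of the 46 spots in order of their change, for nascent transcription (left) and mRNA abundance (right). The nascent changes run from -0.77 to 0.87 and the mRNA changes from -0.45 to 0.65, and no spot passed the test.

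Against 0 min the rule had used the contrasts, so the following counts only describe the set. In nascent transcription 0 of the 46 spots were called lower at 120 min, 0 at 180 min and 1 at 240 min (limma adjusted p), where the backgrounds of spots called lower were 0.156%, 0.137% and 0.0782%. Unadjusted, 24, 20 and 17 of the 46 were lower at p under 0.05, against 7.14%, 5.69% and 5.03% of all spots. All 3 replicates at the late time lay below all 3 at 0 min in 26, 17 and 15 spots, against backgrounds of 11.6%, 8.84% and 6.58%. For the mean of the 3 late times, a contrast added after the data had been seen, 7 of the 46 were called lower (limma adjusted p), with a background of 1.11%. Single arrays decided these calls. The 7 became 0 without the first or second array at 0 min, 2 without array 2 or 3 at 120 min or the first at 180 min, 3 without the second at 180 min and 4 without the second at 240 min. Without the first at 240 min it was 10. The call at 240 min was lost without the first or second array at 0 min or array 2 or 3 at 240 min, and 3 spots were called without the first at 240 min.

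The median mRNA change of the 46 spots on the arrays was -0.21, -0.23 and -0.16 at 120, 180 and 240 min. At these times 35, 40 and 37 were below 0 and 11, 6 and 9 above it. Of all 4882 spots 50.4%, 52.0% and 51.7% were below 0. In mRNA 0 of the 46 spots were called at 120, 180 or 240 min in either direction (limma adjusted p), with backgrounds of 0.696%, 1.76% and 1.66%. For the mean of the late times the count was also 0 (limma adjusted p), with a background of 3.22%. Unadjusted, 1 was lower at 120 min, 0 at 180 and 240 min and 1 for that mean, against 3.81%, 5.51%, 4.85% and 6.88% of all spots. Late replicates wholly below those at 0 min were found in 4, 1 and 1 spots at 120, 180 and 240 min, where the backgrounds were 6.11%, 7.27% and 7.44%. None lay wholly above, where the backgrounds were 6.77%, 7.99% and 8.12%. The numbers of the array files paired the mRNA arrays, and with that number as a block 1 of the 46 spots was called lower in mRNA at 180 min, 1 at 240 min and 1 for the mean of the late times (limma adjusted p). The backgrounds of spots called lower with the block were 5.84%, 5.74% and 9.07%. An mRNA that misses the threshold is not shown to be level. Without the block, the 95% interval of a spot's late mRNA change on the arrays reached ± 0.60 at the median and ± 0.35 at its narrowest, so every one of the 46 intervals was wider than the band of D. In 45 of the 46 the interval held 0. With the block the interval reached ± 0.42 at the median and ± 0.22 at its narrowest, again wider than the band in all 46. It then held 0 in 40 spots and lay wholly below 0 in 6, as it did in 16.6% of all spots. For nascent transcription the interval without the block reached ± 0.54 at the median, and it lay wholly below 0 in 26 spots and in 8.55% of all spots.

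The difference between the late change in nascent transcription and that in mRNA was below 0 in 42 of the 46 spots, with a median of -0.40. None of them passed as an interaction (0 called, limma adjusted p), with 2 of 4805 spots called in all, a background of 0.0416%. At an unadjusted p under 0.05 there was 1 of the 46, against a background of 4.08%. With the replicate block 0 of the 46 were called (limma adjusted p) and 4 had an unadjusted p under 0.05, against backgrounds of 1.1% and 13.2%. The rule chose the spots for this difference, and single-spot error still covered it in most of them.

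Spot R12 - C23 : 8 had the lowest S of the set. Its nascent log2 intensity was 8.72, 8.28 and 8.03 on the 3 arrays at 0 min and 7.12, 7.05 and 7.10 at 240 min. All arrays at 240 min lay below all at 0 min, and this was the spot called at 240 min (limma adjusted p = 0.0474). In the authors' deposited table its synthesis rate was 0.27, 0.316, 0.203 and 0.062 at 0, 30, 60 and 240 min, so it stood higher at 30 min than at 0 min. Its mRNA log2 intensity was 8.05, 7.33 and 7.04 at 0 min. Later it was 7.42, 7.70 and 7.58 at 60 min, then 7.61, 6.46 and 6.68 by 240 min. The mRNA groups at 0 and 240 min overlapped, but each array at 240 min lay below the array of the same number at 0 min. Computed from the quantile-normalised arrays, the D of this spot was -0.39, below the band, against -0.11 in the authors' deposited table.

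Spot R15 - C24 : 16 had the next lowest S, from a dim signal, with a percentile of mean mRNA abundance of 4.06. Its nascent log2 intensity was 5.15, 5.60 and 5.99 at 0 min, compared with 2.65, 5.81 and 4.93 at 240 min. These groups overlapped, and at 240 min the first array lay far below the other two. Its mean late change on the nascent arrays was -0.82 with an SE of 0.65.

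The most positive nascent changes from 30 to 60 min were at R16 - C1 : 14 and R15 - C3 : 2, and neither passed (limma adjusted p = 0.999 for both). R16 - C1 : 14 had nascent values of 1.35, 5.55 and 5.37 at 30 min and 3.93, 5.34 and 5.62 at 60 min, a change of 0.87 in which the first array at 30 min lay far below the other two. Over the late times its nascent change on the arrays was 0.12 with an SE of 0.76, the only one of the 46 above 0, although its synthesis rate in the authors' deposited table went from 0.0445 at 0 min to 0.0145 at 240 min. R15 - C3 : 2 had nascent values of 5.05, 5.42 and 5.18 at 30 min and 5.41, 5.83 and 5.34 at 60 min, a change of 0.31 with groups that overlapped. Its S was -0.58 and its D 0.09.

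The 46 spots had a lower than typical mRNA signal and a somewhat higher than typical synthesis per mRNA. Probe lengths are not in the files, so levels of different spots are compared as signals only. Their median percentile of mean mRNA abundance among the 3574 spots was 31.6, and 15 lay under the 20th percentile, 14 over the 50th and 2 over the 90th. Their median percentile of synthesis rate at 30 min was 43.5. The ratio of synthesis rate to mRNA abundance, which at steady state equals the rate at which an mRNA is turned over, was compared at 30 and 60 min, whose columns entered the rule only through the filter. In the authors' deposited table the ratio of the median spot of the set was 1.45 times that of the median of all spots at 30 min and 1.38 times at 60 min. At 30 min 31 of the 46 spots were above the median of all. The spread was wide, with 19 spots over the 75th percentile of the ratio and 9 under the 25th. Against spots of the same decile of mean abundance the ratio was 1.01 times at 30 min and 1.09 times at 60 min, so most of the excess was shared with other spots of like abundance. On the quantile-normalised arrays the log2 excess over all spots was 0.23 at 30 min and 0.11 at 60 min, where the table gave 0.54 and 0.46. The table holds 1 combined value per time, and these ratios were not tested.

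At the times the rule used, the ratio of the set to all spots was 1.77, 1.13, 1.34 and 1.11 at 0, 120, 180 and 240 min in the authors' deposited table. The set thus began with more synthesis per mRNA than the typical spot and ended close to it. At 0 min the excess over spots of the same decile of abundance was 1.33 times, and at 240 min the ratio was 0.950 times theirs. Since a low S and a level D require this ratio to drop, its course from 0 min is not a finding of its own.

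**Figure D5:**
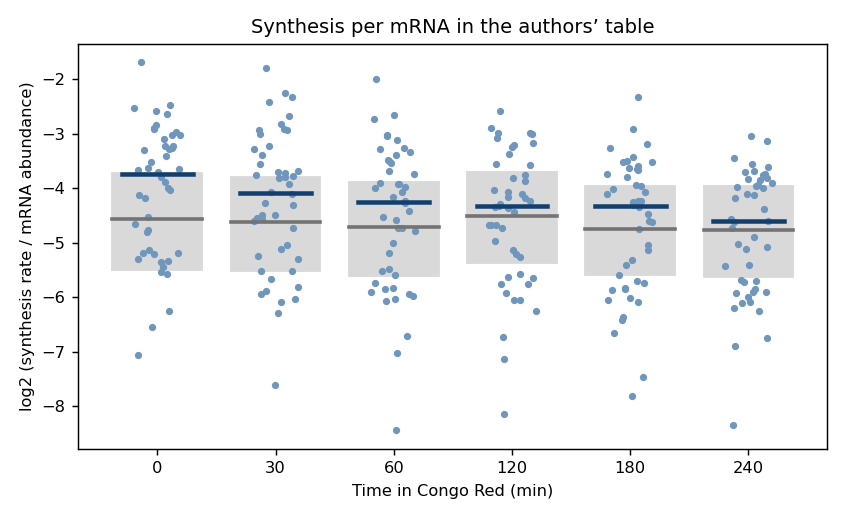
Log2 of synthesis rate over mRNA abundance (y axis) at each time in Congo Red, in the authors' table. Points are the 46 spots with their median as a dark line, and grey boxes give the quartile range and median of all 3574 spots. The medians of the set and of all spots are -3.75 and -4.57 at 0 min, compared with -4.61 and -4.76 at 240 min.

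The 46 spots were not evenly spread over the array. Printing position 3 held 9 of them, 19.6% of the set, but 6.16% of the 3574 spots. It held 95 of the 234 spots with D below the band, 40.6% of those. Row 15 of the blocks held 11 of the set, or 23.9% against 6.91% of all spots, and column 24, at the edge, held 7, or 15.2% against 3.78%. The 46 spots lay in 43 blocks, and 3 of them were neighbours in the block at row 15 and column 24. Whether place on the array plays a part in the low synthesis was not tested beyond the values that follow.

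The 220 spots at printing position 3 past the filter had a median centred synthesis ratio of -0.73 at 120 min and -0.26 at 240 min. The 9 spots of the set at that position had medians of -0.94 and -0.29 at these times. The other 37 had medians of -0.62 at 120 min and -0.67 at 240 min. None of the 9, and 22 of the 37, were lower at 240 than at 120 min, where 11.8% of all spots at position 3 and 48.0% of all 3574 spots were. Spots at position 3 thus mostly stood higher at 240 than at 120 min, whether or not they belonged to the set. In mRNA the 9 spots had medians of -0.27 at 120 min and 0.13 at 240 min, and the other 37 of 0.03 and -0.04. All 220 spots at the position had mRNA medians of -0.56 and -0.25 at these times. On the nascent arrays the median of position 3 differed from that of all spots tested by 0.10, 0.04 and -0.09 at 0 min. At 120 min it differed by -0.30, -0.67 and -0.90. The differences at 180 min were -0.60, -0.88 and 0.00, and those at 240 min were -0.69, -0.07 and -0.07. On the mRNA arrays position 3 differed from all spots tested by -0.26, -0.12 and -0.44 at 0 min. It differed by -0.51, -0.73 and -0.90 at 120 min and by -0.98, -0.92 and -0.21 at 180 min. The mRNA differences at 240 min were -1.18, -0.04 and -0.28. What these shifts mean for the mRNA of the set was not tested. With each position centred on each array, the median late nascent change of the 46 spots was -0.52, against -0.57 without centring. That median covers all 46 spots, of which only 9 lie at position 3. Over all spots past the filter, the median S was -0.46 at position 3, -0.08 in row 15 and -0.14 in column 24, and the median D at position 3 was -0.43.

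Membership of the set differed between the authors' deposited table and the arrays, and the cause of this was not tested. When S and D were computed from the quantile-normalised arrays for the same 3574 spots, they correlated across spots with those of the table at 0.94 and 0.92. The array values kept 31 of the 46 among the 300 lowest S and 28 within the band of D. Both conditions held for 17 of the 46, which is 37.0% of the set and 45.9% of the 37 spots that the array values select. With each printing position centred on each array the rule selected 61 spots. Of these 18 belonged to the set, 29.5% of that list. On the arrays S was below 0 in 45 of the 46, with a median of -0.56. D had a median of -0.18 there, with 18 spots below the band and 0 above it, so the arrays placed the mRNA of the set lower than the table did.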

How the data were processed

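Per the labels, 2 assays at 6 times made 12 groups, each with 3 array files. The deposited array files hold 1 intensity per spot, with no background, flag or gene name. The authors' deposited table holds 1 signal per spot, time and measure with replicates combined, and all 12 columns entered the analysis. The series' design text says that its synthesis rate is nascent transcription normalised to cell volume. Nothing in the sources used here states the scanner, the background treatment or the scaling.

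A listed 0 was treated as missing and other intensities were taken to log2. Spots with at least 2 of 3 replicates above 0 in every group were kept, 4882 for mRNA and 5113 for nascent transcription, quantile normalised within an assay and fitted with time as a factor over 18 arrays (limma 3.58.1, R 4.3.3). The moderated test was adjusted by Benjamini-Hochberg over all spots, with a threshold of 0.05. Quantile normalisation removes changes common to all spots. The interaction used all 36 arrays with weights per assay. The code was tested on simulated data. Tables and plots used Python 3.11.15, numpy 2.4.6, pandas 2.3.3 and matplotlib 3.10.9.

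The members, lists and tests were chosen with earlier results of these data known. Spots given by place were the 2 with the lowest S and the 2 with the largest nascent rise from 30 to 60 min among those with values on all 36 arrays. The labels say only that a sample holds replicates 1 to 3, and the number was read from the array files. For mRNA, all 45 pairs of same-numbered arrays had deviations from their group means that correlated, between 0.615 and 0.846, so the block is given for mRNA. On nascent arrays 13 of 45 pairs were at or below 0.1, and the block there is an alternative only.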

Additional observations from a re-analysis of the deposited data

How the results depend on the processing

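The 46 spots became 21 or 70 with the 200 or 400 lowest S, and 22 or 72 with D within 0.1 or 0.3 of 0. With no level filter, or with one at the 40th percentile, the set held 46 and 56 spots, but only 22 and 27 of the original 46 were among them. Without 120, 180 or 240 min it held 51, 53 and 35 spots, of which 29, 33 and 24 were shared. The count called from 30 to 60 min stayed at 0 in both assays under every alternative run, and the interaction count did too (limma). Leaving out 1 array gave a median nascent change from 30 to 60 min of -0.27 to -0.15 and a median mRNA change of -0.12 to 0.06. Without the members at printing position 3, in row 15 or in column 24, an alternative chosen after seeing the data, the nascent median was -0.17, -0.21 and -0.18. With the replicate block 1 spot was called in mRNA at 180 min, at 240 min and for the mean of the late times, and 4, 1, 6 and 13 were called lower in nascent transcription at 120, 180 and 240 min and for that mean, with 0.958%, 0.411%, 0.743% and 2.64% of all spots called lower. The block changed no other count of calls by adjusted p, and it moved the mRNA intervals below 0, an alternative added after seeing the data, from 1 spot to 6. The 1 nascent call at 240 min became 0 with median scaling of the arrays, with cyclic loess, with at least 1 replicate above 0 or with only the 6 arrays compared, became 2 with each position centred, and lay between 0 and 3 with 1 array left out. The 7 for the mean of the late times became 4 with median scaling of the arrays and lay between 0 and 10 with 1 array left out. Applying the rule to the arrays shared 13 to 14 spots with the set when 1 replicate number was left out. The log2 excess of synthesis per mRNA, 0.54 at 30 min and 0.46 at 60 min, was 0.016 and 0.12 within deciles of abundance and 0.23 and 0.11 on the arrays. The cause of these shifts was not tested.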
